A study of Mus musculus with 6 samples.

Results

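Divergent promoter lncRNAs were described here, that is, long noncoding RNAs that start close to the start of an mRNA and run away from it on the other strand. A lncRNA transcript was taken when it overlapped no listed mRNA transcript, when its 5′ end lay within 2000 bases of the 5′ end of an mRNA transcript on the opposite strand, and when it reached 0.5 FPKM, a count of fragments per kilobase of transcript scaled to the size of the library, in 3 or more of the 6 mice. Of 25974 lncRNA transcripts listed, 614 met the rule on position and 519 of these also met the FPKM minimum, which 23640 lncRNA transcripts met in all. No difference between mice after repeated social defeat (RSD) and control mice was used in this choice. A total of 231 of the 519 reached the minimum in all 6 mice and 98 in exactly 3. Among these, 4 reached it only in the 3 RSD mice and 6 only in the 3 control mice, and such transcripts had to differ between the groups.

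The samples were the prefrontal cortex (PFC) of 3 RSD mice and of 3 control mice. This region helps to control fear and the response to stress. All were males of the inbred strain C57BL/6, aged 6 to 8 weeks, and lived 3 to a cage. For RSD, an aggressive CD-1 male was put into the cage of the residents for 2 h a night over 6 nights. Control mice lived in another cage and room without an intruder, so RSD and the cage or room cannot be told apart. Only mice that showed anxiety-like behavior in the elevated plus maze, a test of the avoidance of open spaces, were taken for sequencing. The study reports this behavior for the RSD mice, relative to the control mice. PFC was collected right after the maze test. Libraries were made after removal of ribosomal RNA and preserved strand. In such bulk tissue, fewer cells of a type and less RNA per cell cannot be told apart.

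Many mammalian promoters start RNA polymerase II in both directions. The mRNA is made on the sense strand, while the RNA made upstream on the other strand is usually short, ends at an early polyadenylation signal and is removed by the nuclear exosome, a complex that degrades RNA. Some upstream RNAs escape, are spliced and stay, and these are listed as divergent lncRNAs. Known examples are Gas5, Snhg10, Tug1 and Pantr1. Gas5 carries snoRNAs, small RNAs that guide the modification of ribosomal RNA, in its introns. The partner genes of Tug1 and Pantr1 are Morc2a and the cortical transcription factor gene Pou3f3.

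The 519 transcripts came from 443 assembled loci and had 431 partner genes, 67 of which had more than 1 divergent lncRNA. They were 468 NONCODE transcripts, named NONMMUT, 42 transcripts assembled by the software of the authors, named MERGE, and 9 Ensembl transcripts. All 519 pairs stood head to head, with the transcripts running away from each other, and 4 lncRNAs had several partner genes in reach. The 5′ ends lay a median of 227 bases apart (quartiles 113 and 575.5, range 1 to 1988), with 102 pairs within 100 bases, 371 within 500 and 441 within 1000. The closest was NONMMUT139235.1 beside Dedd, which encodes a death effector domain protein, where the first bases of both transcripts are neighbours at a distance of 1. Transcripts spanned a median of 2367 bases on the genome, against 2239 for all lncRNA transcripts tested. By position alone, since the gene table used holds no strand, 276 overlapped a noncoding gene of RefSeq, 186 a protein-coding gene and 134 none, and in 117 cases the protein-coding gene was the partner itself, whose RefSeq start lies further upstream than the listed mRNA. The 2 pairs just inside the limit were NONMMUT146008.1 beside Rbm4b at 1988 bases and NONMMUT154081.1 beside Trank1 at 1983 bases, with levels of 1.17, 1.03 and 1.45 FPKM in RSD mice against 0.299, 1.14 and 1.01 FPKM in control mice for the transcript beside Rbm4b. The closest left outside were NONMMUT071607.2 beside mt-Cytb on the mitochondrial genome at 2043 bases, with 168 to 189 FPKM in RSD mice and 173 to 297 FPKM in control mice, and NONMMUT042994.2 beside Setd7 at 2050 bases, with 0 to 0.508 FPKM in RSD mice and 0.519 to 0.667 FPKM in control mice.

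**Figure D1:**
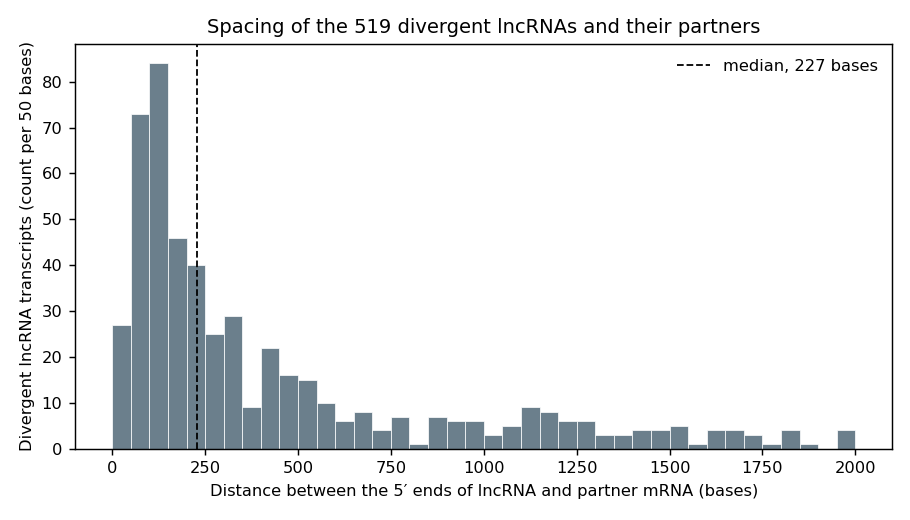
Number of divergent lncRNA transcripts in bins of 50 bases of the distance between their 5′ end and that of the partner mRNA. The 519 transcripts have a median distance of 227 bases (dashed line), and 371 of them lie within 500 bases.

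The promoter between the 2 starts is shown for 5 pairs, to let the shared stretch be read directly. In 4 of them the lncRNA differed between RSD and control mice at the threshold of the study, and in the pair of Gskip the lncRNA had the second-highest level of all 519 and close values in the 6 mice. Sequences are the RefSeq promoter windows of GRCm38.p6, written 5′ to 3′ on the strand of the mRNA, from 250 bases before its RefSeq start to 50 bases after it. Capitals mark the stretch from the first base of the lncRNA, which runs to the left on the other strand, to the first base of the listed mRNA, which runs to the right. The windows lie at chr10:79766903-79767202 on the minus strand beside NONMMUT006358.2, at chr7:30729485-30729784 on the minus strand beside NONMMUT060616.2, at chr10:99106832-99107131 on the plus strand beside NONMMUT007071.2, at chr7:24530398-24530697 on the plus strand beside NONMMUT060241.2 and at chr12:105685102-105685401 on the plus strand beside MERGE.10245.2.
Rnf126: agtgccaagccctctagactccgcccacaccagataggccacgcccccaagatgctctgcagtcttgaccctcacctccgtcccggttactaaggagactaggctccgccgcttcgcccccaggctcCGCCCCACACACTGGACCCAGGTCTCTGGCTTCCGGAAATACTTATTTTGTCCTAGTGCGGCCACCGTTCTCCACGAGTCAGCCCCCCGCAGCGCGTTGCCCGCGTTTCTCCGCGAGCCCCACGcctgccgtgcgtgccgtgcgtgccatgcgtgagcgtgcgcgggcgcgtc
Tmem147: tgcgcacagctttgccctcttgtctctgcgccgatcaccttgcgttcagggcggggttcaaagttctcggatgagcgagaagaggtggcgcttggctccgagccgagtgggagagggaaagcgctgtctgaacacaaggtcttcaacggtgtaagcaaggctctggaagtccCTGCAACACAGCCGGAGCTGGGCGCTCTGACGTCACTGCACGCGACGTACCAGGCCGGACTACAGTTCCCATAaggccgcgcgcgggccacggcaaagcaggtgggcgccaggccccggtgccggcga
Poc1b: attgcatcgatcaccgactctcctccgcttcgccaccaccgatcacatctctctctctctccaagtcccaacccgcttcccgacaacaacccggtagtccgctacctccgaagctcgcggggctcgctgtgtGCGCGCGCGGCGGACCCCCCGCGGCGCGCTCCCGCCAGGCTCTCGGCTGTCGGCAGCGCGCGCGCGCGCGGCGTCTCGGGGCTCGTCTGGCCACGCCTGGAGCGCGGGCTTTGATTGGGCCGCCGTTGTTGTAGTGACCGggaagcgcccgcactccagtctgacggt
Irgq: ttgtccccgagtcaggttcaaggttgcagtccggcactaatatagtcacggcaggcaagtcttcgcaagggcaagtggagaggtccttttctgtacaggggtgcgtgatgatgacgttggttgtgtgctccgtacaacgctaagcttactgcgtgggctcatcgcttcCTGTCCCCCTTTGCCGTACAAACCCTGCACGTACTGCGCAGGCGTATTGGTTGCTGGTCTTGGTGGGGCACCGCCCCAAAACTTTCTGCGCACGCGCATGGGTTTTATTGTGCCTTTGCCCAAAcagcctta
Gskip: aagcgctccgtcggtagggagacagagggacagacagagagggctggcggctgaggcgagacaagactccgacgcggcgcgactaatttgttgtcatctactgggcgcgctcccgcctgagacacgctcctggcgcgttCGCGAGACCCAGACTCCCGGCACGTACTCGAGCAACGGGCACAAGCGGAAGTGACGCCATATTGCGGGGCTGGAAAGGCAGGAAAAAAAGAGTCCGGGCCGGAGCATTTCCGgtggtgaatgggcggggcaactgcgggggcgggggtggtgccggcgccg

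The stretch in capitals was 124 bases long for Rnf126, 73 for Tmem147, 140 for Poc1b, 124 for Irgq and 112 for Gskip, so that the starts of each pair share a short stretch of DNA. The windows held 66.3%, 64.0%, 69.7%, 55.3% and 65.7% G and C in the same order. Searched on both strands, GGGCGG, the GC box bound by Sp1, matched 2 times for Rnf126, 1 time for Tmem147, 1 time for Irgq and 2 times for Gskip, and TGACGT, a part of the cyclic AMP response element bound by CREB, matched 2 times for Tmem147, where the matches overlap on opposite strands, and 1 time for Irgq. CCAAT matched 1 time each for Poc1b and Irgq, and TATAAA, the TATA box, matched in none of the 5 windows. Such a match is a description of the letters and not a site.

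Promoters of the partner genes were rich in G, C and CpG. A RefSeq window that starts within 50 bases of the 5′ end of the listed mRNA was found for 251 of the 431 partner genes (58.2%), so the values below cover only that share, and for 7410 other tested genes. The median content of G and C was 67.7% in partner promoters, against 61.3% in the promoters of the other tested genes and 52.7% in all 32851 promoters of the table. The ratio of observed to expected CpG, which is low where CpG has been lost to methylation and high in CpG islands, had a median of 0.873 in partner promoters, 0.777 in the other tested genes and 0.384 in all promoters. A ratio of at least 0.6 was seen in 92.0%, 75.2% and 35.8% of these sets. The GC box GGGCGG occurred in 76.9% of partner promoters, 66.8% of the other tested genes and 35.7% of all promoters, and CCGGAAG, the core bound by ETS factors, in 22.7%, 19.1% and 8.86%. Partner promoters held TATAAA in 3.98% of windows, against 6.82% in the other tested genes and 13.6% in all promoters, and AATAAA, the polyadenylation signal, in 5.98%, against 10.8% and 19.6%. CCAAT occurred in 34.7%, 38.8% and 37.4% of the 3 sets, TGACGT in 15.1%, 12.5% and 7.51%, CACGTG, an E-box, in 8.37%, 10.8% and 7.15%, GCGCATG, a part of the NRF1 site, in 9.16%, 7.64% and 3.91%, and GGTAAG, which resembles a 5′ splice site, in 6.37%, 6.83% and 9.67%. Short motifs rich in G and C depend on base composition, and these shares were not tested against each other. Of the 305 pairs with a window, 166 had the first base of both transcripts inside it.

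**Figure D2:**
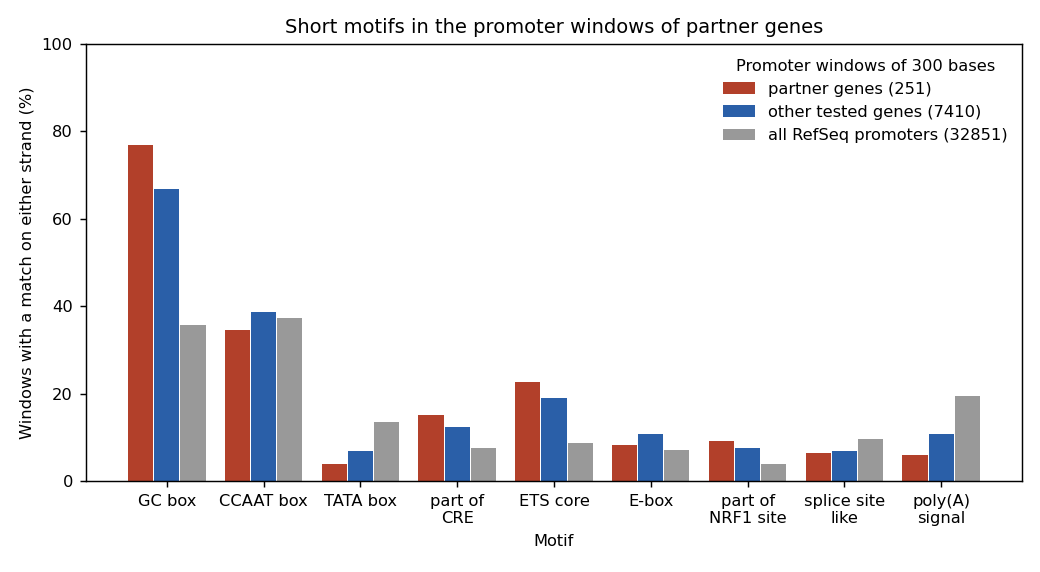
Percent of promoter windows of 300 bases with a match of each short motif on either strand, in partner genes of divergent lncRNAs (red, 251), other tested genes (blue, 7410) and all RefSeq promoters (gray, 32851). The GC box was found in 76.9% of partner promoters and the TATA box in 3.98%.

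Divergent lncRNAs were low in the PFC. Their mean FPKM over the 6 mice had a median of 0.820 (quartiles 0.626 and 1.37), against 1.53 for all lncRNA transcripts tested, and since levels per kilobase depend on how the reads of a locus are divided among its transcripts, the values of loci with several rows are lower bounds for the locus. The partner genes, taken as the sum of the FPKM of all mRNA rows that carry the symbol, had a median of 7.81 FPKM (quartiles 3.91 and 15.9, 425 tested genes), against 5.31 FPKM for the 11852 other tested genes. Within the 512 pairs with a tested partner gene, the lncRNA was below its partner in 487 (95.1%) and above it in 25, and the partner was a median of 8.29 times higher. Across the 512 pairs, which share libraries and in part partner genes, the mean log2 levels of lncRNA and partner gave r = 0.00257 and rho = -0.0172, which is given as a description only. The median of the 519 transcripts was 0.863, 0.818 and 0.817 FPKM in the RSD mice, against 0.851, 0.918 and 0.906 FPKM in the control mice. In each mouse, 9 to 20 of them in RSD mice and 5 to 18 in control mice were listed at 0.

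**Figure D3:**
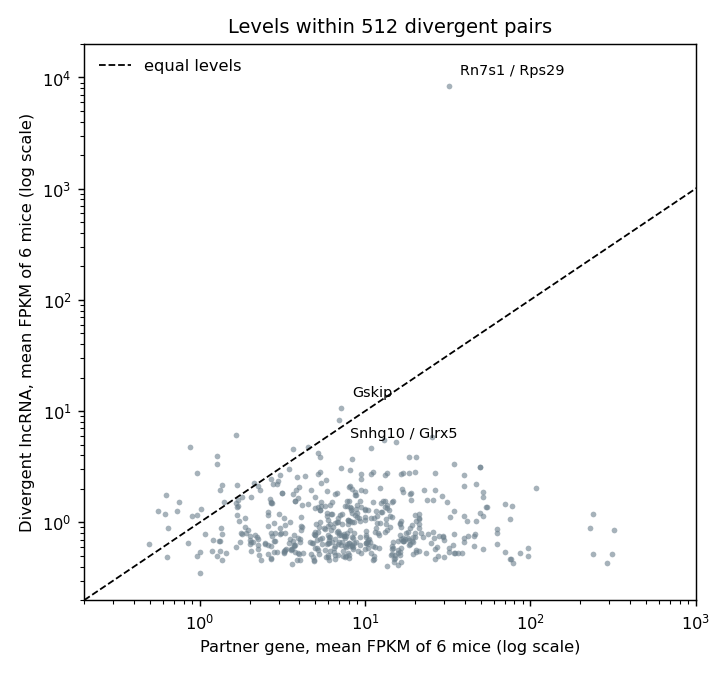
Mean FPKM of the divergent lncRNA (vertical, log scale) and of its partner gene (horizontal, log scale) in 512 pairs, each point a pair averaged over the 6 mice. Points under the dashed line of equal levels are the 487 pairs with the lncRNA below its partner, and the single point far above it is Rn7s1 beside Rps29.

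The highest divergent transcript was an RNA of another class. NONMMUT014453.2, on chromosome 12 from 69159295 to 69159591 on the plus strand, overlaps Rn7s1, the 7SL RNA of the signal recognition particle that RNA polymerase III makes, and starts 109 bases from Rps29, which encodes a protein of the small ribosomal subunit. It had 624, 5980.4 and 13298 FPKM in RSD mice, against 13931, 11504 and 4878 FPKM in control mice, so the groups overlapped and RSD 1 stood far below the other 5 mice, while Rps29 was at 30.5, 31.0 and 23.9 FPKM in RSD mice, against 74.2, 14.0 and 21.0 FPKM in control mice. Its log2 fold change was -1.33 (standard error 1.11, adjusted p = 0.937 from limma).

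The next highest transcripts differed in how far they varied between mice. MERGE.10245.2, which starts 111 bases from Gskip, the anchor that brings protein kinase A to GSK3β, had 10.4, 11.4 and 11.4 FPKM in RSD mice, against 10.3, 10.6 and 10.3 FPKM in control mice. Groups overlapped, and the log2 fold change was 0.092. NONMMUT086125.1 beside Klhl29, a BTB and kelch protein, had 4.91, 6.57 and 6.10 FPKM in RSD mice, against 6.92, 6.33 and 5.61 FPKM in control mice. MERGE.9433.1 beside Fam179b, which encodes a ciliary microtubule protein, had 5.22 to 5.39 FPKM in RSD mice and 5.52 to 5.97 FPKM in control mice. All RSD mice were below all control mice for the transcript beside Fam179b, by a log2 fold change of -0.10 (unadjusted p = 0.543 from limma), and the groups overlapped for that beside Klhl29. MERGE.42259.1 beside Cul4a, the scaffold of a ubiquitin ligase, was at 5.36 to 5.82 FPKM in RSD mice and 4.74 to 5.30 FPKM in control mice, and NONMMUT027952.2 beside Scaf8, which binds the tail of RNA polymerase II, at 4.59 to 5.76 FPKM in RSD mice and 4.0 to 4.43 FPKM in control mice. For each of these, every RSD mouse was above every control mouse, by log2 fold changes of 0.13 and 0.25 (limma, unadjusted p = 0.449 and 0.211). NONMMUT144863.1 beside Trim39, a ubiquitin ligase, had 3.89 to 4.99 FPKM in RSD mice and 3.69 to 6.21 FPKM in control mice. MERGE.38754.1 beside Sspn, sarcospan of the dystrophin complex, had 2.29 to 4.39 FPKM in RSD mice and 4.03 to 8.24 FPKM in control mice, and was among the few above its partner, whose mean was 0.874 FPKM. NONMMUT047810.2, which starts 142 bases from Ptprd, a receptor tyrosine phosphatase that organizes synapses, was at 4.87, 4.10 and 4.89 FPKM in RSD mice, against 5.65, 8.11 and 7.74 FPKM in control mice. It was lower in every RSD mouse than in every control mouse, with a log2 fold change of -0.61 (standard error 0.211, unadjusted p = 0.0261, adjusted p = 0.927 from limma).

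To ask whether divergent lncRNAs differed after RSD, all 23640 tested lncRNA transcripts were fitted together with limma on log2(FPKM + 0.1), a scale that understates the change of low transcripts, and the 519 were read from that fit. The threshold of the study, a log2 fold change of 1 or more in either direction with an unadjusted p of 0.05 or less, was then applied, and 12 of the 519 met this (2.31%), against 2.43% of all lncRNA transcripts tested. Of the 12, 3 were higher in RSD mice (0.578%, against 1.07% of all) and 9 were lower (1.73%, against 1.37%). The share met by divergent lncRNAs was thus close to that of lncRNAs at large. No divergent lncRNA passed an adjusted p under 0.05 (limma, Benjamini-Hochberg), which 0.102% of all lncRNA transcripts did, and 27 had an unadjusted p of at most 0.05 (5.2%, against 5.28%). The median log2 fold change of the 519 was -0.16, against -0.086 for all tested, with 183 above 0 and 336 below. All 3 RSD mice were above all 3 control mice in 17 (3.28%, against 3.49%) and below them in 46 (8.86%, against 7.49%). With the libraries scaled to the same median, which moves the median of all lncRNA transcripts to 0.0037, 4 divergent lncRNAs were higher and 4 lower, so the tilt towards lower calls was not kept. Of all lncRNA transcripts, 2.12% were then at the threshold. Without control 1, which stood apart from the other control mice, 10 were higher and 7 lower, without control 2 or control 3 there were 6 higher, and without RSD 1 there were 0 higher and 16 lower and without RSD 3 there were 14 lower. The share of all lncRNA transcripts at the threshold moved too. It was 3.38%, 2.57% and 2.52% without control 1, 2 and 3, and 2.28% and 2.78% without RSD 1 and RSD 3.

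The called shares did not order by distance. At most 100 bases from the partner, 2 of 102 were called (1.96%), from 100 to 250 bases 4 of 168 (2.38%), from 250 to 500 bases 2 of 101 (1.98%), from 500 to 1000 bases 1 of 70 (1.43%) and from 1000 to 2000 bases 3 of 78 (3.85%). Median log2 fold changes in these bins were -0.13, -0.13, -0.17, -0.20 and -0.21.

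**Figure D4:**
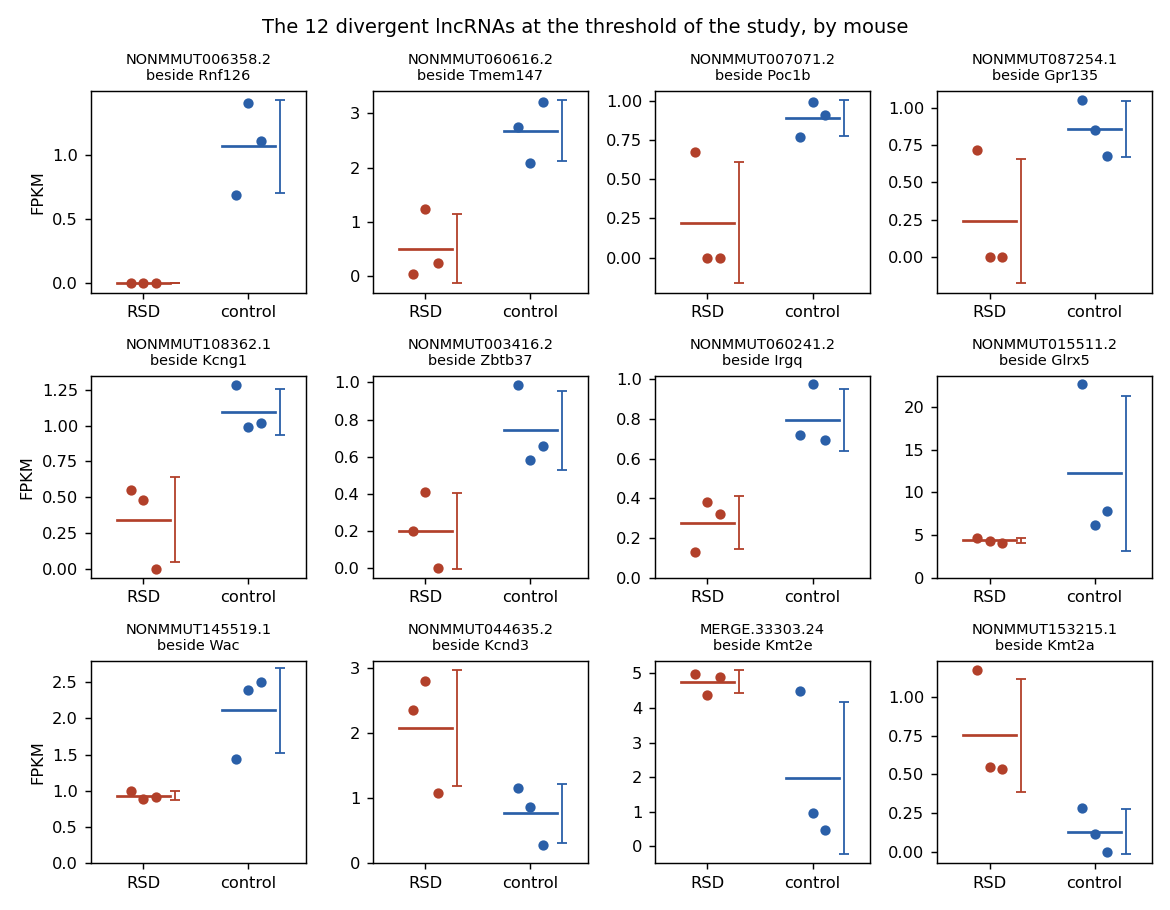
FPKM of the 12 divergent lncRNAs at the threshold of the study in each RSD mouse (red, left) and each control mouse (blue, right), with the group mean (line) and SD (bar, n = 3). NONMMUT006358.2 beside Rnf126 is listed at 0 in the 3 RSD mice, and the groups overlap for Gpr135, Kcnd3 and Kmt2e.

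Among the 9 that were lower in RSD mice, most were near or under 1 FPKM in control mice. NONMMUT006358.2, on chromosome 10 from 79767075 to 79769983 on the plus strand, starts 123 bases from Rnf126, a ubiquitin ligase for proteins that fail to reach their membrane. It was listed at 0 in the 3 RSD mice, against 0.685, 1.40 and 1.11 FPKM in the control mice. A listed 0 can be a failed estimate in these tables, so no fold change is given, and it had the smallest adjusted p of the 519, which was 0.218 (limma). Its partner Rnf126 was at 3.49, 1.78 and 0.192 FPKM in RSD mice, against 2.18, 0.423 and 0.611 FPKM in control mice, with overlapping groups. NONMMUT060616.2, on chromosome 7 from 30729612 to 30746330, starts 72 bases from Tmem147, a protein of the endoplasmic reticulum translocon. It had 0.0289, 1.23 and 0.244 FPKM in RSD mice, against 2.74, 2.09 and 3.21 FPKM in control mice, with all RSD mice below, a log2 fold change of -2.82 (limma, standard error 0.808, adjusted p = 0.910). Tmem147 itself was even, at 17.8, 21.5 and 22.0 FPKM in RSD mice against 18.6, 17.8 and 16.3 FPKM in control mice. Summed over all lncRNA rows of this locus, an alternative added after seeing the data, the values were 7.50, 7.33 and 8.98 FPKM in RSD mice, against 8.26, 6.79 and 7.22 FPKM in control mice, and the log2 fold change was 0.094. The sum over the locus did not show the difference of this row. The calls beside Rnf126 and Tmem147 were the 2 of 12 that held with each mouse left out in turn.

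NONMMUT007071.2, which starts 139 bases from Poc1b, a protein of centrioles, had 0.672, 0 and 0 FPKM in RSD mice, against 0.767, 0.994 and 0.906 FPKM in control mice. NONMMUT087254.1, which starts 185 bases from the orphan receptor gene Gpr135, had 0.719, 0 and 0 FPKM in RSD mice, against 1.05, 0.852 and 0.676 FPKM in control mice. In both, RSD 1 was close to the control mice and the other RSD mice were listed at 0, with log2 fold changes of -2.32 and -2.23, and both calls held only without RSD 1 (unadjusted p with any other mouse left out 0.0776 to 0.0910 for Poc1b and 0.0772 to 0.124 for Gpr135, limma). These sizes depend on the FPKM added before the logarithm. They were -4.45 and -4.36 with 0.01 and -0.669 and -0.629 with 1, and neither call was kept with either. NONMMUT060241.2, which starts 123 bases from Irgq, a relative of the immunity-related GTPases, had 0.129, 0.384 and 0.322 FPKM in RSD mice, against 0.720, 0.975 and 0.693 FPKM in control mice. All RSD mice were below all control mice, by a log2 fold change of -1.30 (limma, standard error 0.402, adjusted p = 0.918), which was -0.97 without RSD 1 and had an unadjusted p of 0.0628 without control 2. This transcript reached the FPKM minimum only in the control mice, so its groups had to differ. Irgq was at 18.6, 17.7 and 16.9 FPKM in RSD mice, against 15.5, 13.9 and 14.9 FPKM in control mice. NONMMUT145519.1, which starts 1666 bases from Wac, an adaptor protein of histone H2B ubiquitination, had 0.994, 0.879 and 0.918 FPKM in RSD mice, against 1.43, 2.40 and 2.50 FPKM in control mice. This was a log2 fold change of -1.06 (limma, standard error 0.261, adjusted p = 0.782), and -0.96 and -0.93 without control 2 and control 3.

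The only pair at the threshold on both sides was that of Kcng1, a modifier subunit of Kv2 potassium channels. NONMMUT108362.1, on chromosome 2 from 168282376 to 168283485, starts 1244 bases from it and had 0.550, 0.478 and 0 FPKM in RSD mice, against 1.28, 0.994 and 1.02 FPKM in control mice. Kcng1 was at 6.98, 5.27 and 4.89 FPKM in RSD mice, against 4.14, 1.73 and 0.419 FPKM in control mice. The lncRNA was lower in all RSD mice and the mRNA higher in all of them, by log2 fold changes of -1.83 and 1.85 (adjusted p = 0.927 and 0.557 from limma), and the log2 ratio of lncRNA to partner differed by -3.68 (standard error 0.936, adjusted p = 0.674). The ratio stayed at the threshold with each mouse left out, between -4.28 and -2.91. The change of the lncRNA was -0.96 without RSD 3, whose value is 0, and its call was lost without any one of the control mice. The call of Kcng1 held only without control 1, with a log2 fold change of 1.04 without control 3, the lowest control mouse.

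Of the 3 that were higher in RSD mice, NONMMUT044635.2 overlaps Kcnd3os and starts 603 bases from Kcnd3, the channel Kv4.3 of the A-type potassium current. It had 2.36, 2.79 and 1.08 FPKM in RSD mice, against 1.16, 0.856 and 0.270 FPKM in control mice, with overlapping groups, a log2 fold change of 1.41, and 0.89 without control 3, and its call held only without RSD 3 or control 1. MERGE.33303.24 overlaps 5031425E22Rik and starts 96 bases from Kmt2e, an MLL-family protein. It had 4.99, 4.37 and 4.90 FPKM in RSD mice, against 4.48, 0.959 and 0.476 FPKM in control mice. Control 1 lay within the RSD mice, so that the log2 fold change of 1.78 was 2.63 without control 1 and 1.14 without control 3, and the call held only without control 1. The sum over the lncRNA rows of that locus was 28.2, 25.9 and 29.5 FPKM in RSD mice, against 29.9, 41.9 and 33.1 FPKM in control mice, a log2 fold change of -0.31, opposite in sign to that of the transcript. NONMMUT153215.1 overlaps Gm39326 and starts 432 bases from Kmt2a, a histone H3 lysine methyltransferase. It had 1.17, 0.550 and 0.534 FPKM in RSD mice, against 0.284, 0.118 and 0 FPKM in control mice, with no overlap, a log2 fold change of 1.99 (limma, standard error 0.648, adjusted p = 0.927), and an unadjusted p of 0.0987 without RSD 1. This transcript reached the FPKM minimum only in the RSD mice, so its groups had to differ. Kmt2a was even, at 14.5 to 19.5 FPKM in RSD mice and 11.6 to 18.9 FPKM in control mice.

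The loci of Gas5 and Snhg10 gave 2 of the called rows. Gas5, whose RNA is known to bind the glucocorticoid receptor in human cells, is divergent to Zbtb37, which encodes a zinc finger protein, and its reads were divided among 7 of the 519 transcripts. The called row, NONMMUT003416.2, had 0.201, 0.408 and 0 FPKM in RSD mice, against 0.985, 0.581 and 0.660 FPKM in control mice, a log2 fold change of -1.73 whose call held only without RSD 2 and which was -1.08 without RSD 3. This row reached the FPKM minimum only in the control mice, so its groups had to differ. The most abundant of the 7, MERGE.2418.8, had 1.31, 1.99 and 1.97 FPKM in RSD mice, against 4.03, 3.25 and 2.32 FPKM in control mice, with all RSD mice below (log2 fold change -0.82, unadjusted p = 0.026 from limma). NONMMUT003414.2, by contrast, had 2.42, 0.767 and 1.68 FPKM in RSD mice and 1.15, 1.17 and 1.73 FPKM in control mice. Summed over the locus, Gas5 was at 9.13, 8.72 and 8.41 FPKM in RSD mice, against 14.8, 10.1 and 9.88 FPKM in control mice, with all RSD mice below (log2 fold change -0.38, standard error 0.214, unadjusted p = 0.119, adjusted p = 0.925 from limma). Zbtb37 was at 2.21 to 3.0 FPKM in RSD mice and 2.12 to 3.71 FPKM in control mice.

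Snhg10 is divergent to Glrx5, a protein of mitochondrial iron-sulfur cluster assembly. NONMMUT015511.2, a row of 275 bases on chromosome 12 from 105031075 to 105031349, had 4.67, 4.35 and 4.11 FPKM in RSD mice, against 22.6, 6.13 and 7.87 FPKM in control mice. All RSD mice were below all control mice, but control 1 was far above the others, and the log2 fold change was -1.22 with it and -0.66 without it. The call was also lost without any one of the RSD mice. The other row, NONMMUT015509.2, was level, at 0.370, 0.715 and 0.950 FPKM in RSD mice against 0.627, 0.697 and 0.664 FPKM in control mice. Glrx5 was at 12.7, 10.5 and 3.51 FPKM in RSD mice, against 9.03, 2.95 and 3.11 FPKM in control mice.

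Other listed lncRNAs beside a partner gave no call. Of 51 named lncRNAs of this kind on the list used, 15 of the 519 transcripts overlapped one, namely those of Gas5, Tug1, Pantr1, Snhg10 and Snhg1. Tug1, a lncRNA of neurons and retina, was split over 3 rows beside Morc2a, a chromatin ATPase. Its row MERGE.5623.13 was listed at 0, 4.39 and 0 FPKM in RSD mice, against 2.74, 0 and 1.94 FPKM in control mice. Its locus sum was 13.7, 18.0 and 16.5 FPKM in RSD mice, against 13.8, 15.3 and 15.1 FPKM in control mice (log2 fold change 0.12). Pantr1 beside Pou3f3 had 2 rows with overlapping groups, and its locus sum was 7.85, 4.77 and 4.89 FPKM in RSD mice, against 12.6, 8.40 and 8.01 FPKM in control mice. All RSD mice were below all control mice in that sum, with a log2 fold change of -0.73 (standard error 0.282, unadjusted p = 0.0356, adjusted p = 0.877 from limma), while Pou3f3 was at 13.5, 13.0 and 10.2 FPKM in RSD mice, against 11.2, 9.25 and 3.14 FPKM in control mice. NONMMUT145811.1 at Snhg1, beside the amino acid transporter subunit gene Slc3a2, was at 1.01, 0.520 and 0.485 FPKM in RSD mice and 0.371, 0.800 and 0.980 FPKM in control mice.

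The partner genes were asked the same question in a fit of all 12277 tested genes. Of 425 partner genes, 17 met the threshold of the study (4.0%, against 2.42% of all genes), 12 of them higher in RSD mice (2.82%, against 1.85%) and 5 lower (1.18%, against 0.57%), and none passed the adjusted threshold, which 0.0733% of all genes did, with 45 at an unadjusted p of at most 0.05 (limma, 10.6%, against 8.94%). Groups did not overlap for 35 that were higher (8.24%, against 9.39%) and 32 that were lower (7.53%, against 6.66%). The number at the threshold moved with single mice. It was 5 higher and 3 lower without RSD 1, 5 and 2 without RSD 2, 20 and 5 without RSD 3, 22 and 4 without control 1, 6 and 3 without control 2 and 7 and 5 without control 3. The share of all genes at the threshold moved too, and was 1.78%, 1.73%, 4.15%, 6.13%, 2.07% and 2.17% in the same order. Partner genes were below or close to this share without RSD 1, RSD 2, control 1 or control 2. Without control 1, 4 partner genes passed the adjusted threshold, and 1 did without control 2. The share of all genes past the adjusted threshold was not taken in these 2 fits, so these counts cannot be set against one.

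The 4 partner genes that held with each mouse left out were Ptk2, Bend4, Hivep1 and Mtus2. Ptk2, the focal adhesion kinase, had 1.32, 1.51 and 1.32 FPKM in RSD mice, against 7.45, 4.29 and 4.81 FPKM in control mice, a log2 fold change of -1.88 (limma, standard error 0.239, adjusted p = 0.147). Its divergent lncRNA NONMMUT023888.2, which starts 106 bases away, had 0.481, 0.796 and 0.708 FPKM in RSD mice, against 0.576, 0.408 and 0.963 FPKM in control mice. The mRNA was lower in all RSD mice and the lncRNA overlapped. Bend4, a BEN domain gene, had 0.547, 0.332 and 0.697 FPKM in RSD mice, against 2.62, 2.02 and 1.44 FPKM in control mice, while its lncRNA NONMMUT052602.2 had 0.418, 0.508 and 0.481 FPKM in RSD mice and 0.161, 0.732 and 0.704 FPKM in control mice. The transcription factor gene Hivep1 had 9.07, 9.18 and 7.63 FPKM in RSD mice, against 5.04, 2.24 and 2.78 FPKM in control mice, and Mtus2, a microtubule protein gene, had 2.67, 2.74 and 3.42 FPKM in RSD mice, against 1.47, 1.34 and 0.934 FPKM in control mice. Their log2 fold changes were 1.41 and 1.19, against -0.62 for the lncRNA beside Hivep1 and 0.13 for that beside Mtus2, neither at the threshold.

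The other partner genes at the threshold held only with some mice. Higher in RSD mice were Ncoa7, a nuclear receptor coactivator, Scrt1, a neuronal repressor, Zfp800, Zfp592, the histone methyltransferase gene Kmt2d, Kcng1, Slc32a1, Sppl2b, the adhesion receptor gene Adgrb2 and Gon4l, with log2 fold changes of 3.41, 2.36, 2.24, 2.20, 2.10, 1.85, 1.26, 1.22, 1.16 and 1.04. Among the lower ones were Trmt10a, which modifies tRNA, and Fkbp2, with log2 fold changes of -2.33 and -1.39. The size for Trmt10a depends on the FPKM added before the logarithm. It was -4.47 with 0.01 and -0.687 with 1, and the call of Trmt10a was kept with neither. Slc32a1, the vesicular GABA transporter of inhibitory neurons, had 16.5, 13.2 and 7.70 FPKM in RSD mice, against 7.72, 3.51 and 4.36 FPKM in control mice. Its lncRNA NONMMUT110054.1, which starts 43 bases away, had 0.788, 0.658 and 0.710 FPKM in RSD mice, against 0.619, 0.579 and 0.607 FPKM in control mice. Here all RSD mice were above all control mice for the lncRNA, by a log2 fold change of 0.22 (unadjusted p = 0.375 from limma), and the groups overlapped for Slc32a1.

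Of the 12 called lncRNAs, none had a partner gene called in the same direction and 1, that of Kcng1, had one called in the opposite direction. To test whether lncRNA and partner differed by unequal amounts, the log2 ratio of their FPKM, each plus 0.1, was fitted for 23238 lncRNA transcripts. Those that were not divergent were paired with the gene of the mRNA transcript with the nearest 5′ end on either strand. A pair was left out where its gene was not tested. At the threshold of the study 37 of 512 divergent pairs were called (7.23%, against 4.26% of all ratios), with 12 ratios higher in RSD mice (2.34%, against 1.43%) and 25 lower (4.88%, against 2.84%). The adjusted threshold was passed by 0 of them, against 0.0732% of all ratios, and 42 had an unadjusted p of at most 0.05 (limma, 8.2%, against 5.46%). The median ratio change was -0.20, against -0.099 for all ratios. The 512 lncRNAs are also lower in level than other lncRNA transcripts. Of the 25974 lncRNA transcripts listed, only 11217 overlapped no mRNA transcript. The ratios of all thus include many lncRNAs that overlap an mRNA, which divergent lncRNAs do not, so the 2 shares are of unlike pairs. The part of level and of this pairing in the share was not tested. Scaling to the same library median moved the median of all ratios to 0.070 and gave 12 higher and 16 lower. Lower ratios numbered 47 without control 1 and 14 without control 2. Higher ratios numbered 3 without RSD 1 or RSD 2, 8 without RSD 3 or control 2 and 7 without control 3. Without control 1, 1 ratio passed the adjusted threshold, and the share of all ratios that did so was not taken. The share of all ratios at the threshold was 8.7%, 4.2% and 3.97% without control 1, 2 and 3. It was 3.41%, 3.48% and 5.0% without RSD 1, 2 and 3, and 4.14% with the scaling.

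**Figure D5:**
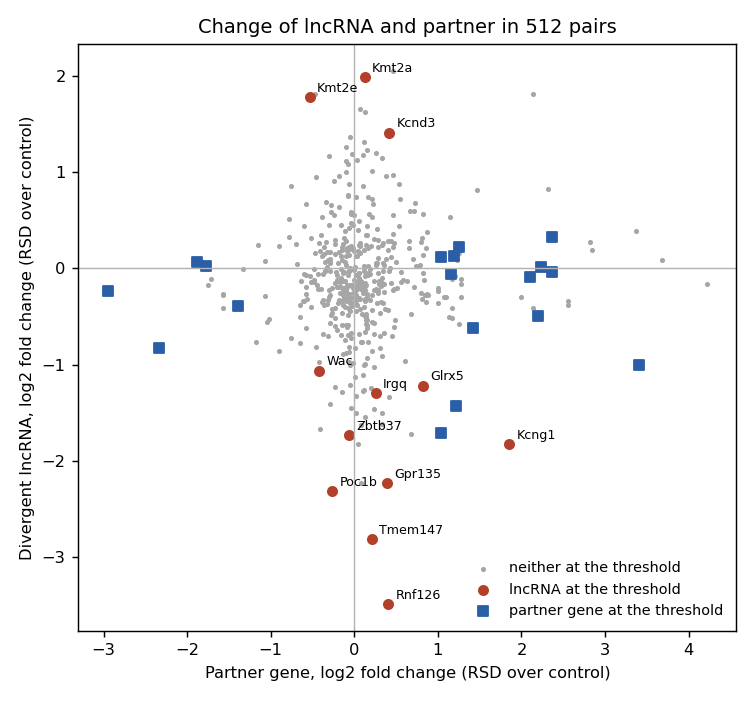
Log2 fold change of RSD over control for the divergent lncRNA (vertical) and its partner gene (horizontal) in 512 pairs. Red circles are the 12 lncRNAs at the threshold of the study, named by partner, blue squares the other pairs whose partner gene is at the threshold, and the red circle of Kcng1 is at the threshold for both. The lncRNA beside Rnf126 is listed at 0 in RSD mice, so its position depends on the 0.1 FPKM that was added.

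Among the lower ratios with the largest fitted changes were those of Ncoa7 (-4.41), Kcng1 (-3.68) and Tmem147 (-3.03), and those of Cherp and Rnf126, for which no size is given, since Cherp is listed at 0 in 2 control mice and the lncRNA beside Rnf126 in the 3 RSD mice. The sizes depend on the FPKM added before the logarithm, that of Kcng1 being -4.93 with 0.01 and -1.96 with 1. Among the largest higher ones were those of Kmt2e (2.32), Ptk2 (1.95), Kmt2a (1.87) and Bend4 (1.79). The ratios of Ptk2, Tmem147 and Kcng1 held with each mouse left out and under each other alternative run for ratios in which they could be fitted. The nearest mRNA transcript as the partner was among these. Ratios were not fitted to sums over the lncRNA locus, and the lncRNA change beside Tmem147 was 0.094 in that sum. Several of the rest turned on a partner near 0 in single control mice. Cherp, a calcium homeostasis protein of the endoplasmic reticulum, was at 8.57, 9.02 and 7.47 FPKM in RSD mice, against 9.26, 0 and 0 FPKM in control mice, while its lncRNA NONMMUT066133.2, which starts 85 bases away, was at 0.800, 0.346 and 0.480 FPKM in RSD mice, against 0.620, 0.541 and 0.609 FPKM in control mice. Ncoa7 was at 10.1, 7.21 and 10.3 FPKM in RSD mice, against 6.86, 0.481 and 0.0601 FPKM in control mice, and its lncRNA NONMMUT139397.1 at 0.562, 0.301 and 0.0936 FPKM in RSD mice, against 0.577, 0.566 and 0.818 FPKM in control mice. In both pairs control 1 was close to the RSD mice and controls 2 and 3 stood apart for the mRNA, while the lncRNA showed no such split. For the lncRNA beside Ncoa7, every RSD mouse was below every control mouse, and for that beside Cherp the groups overlapped.

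Some partner genes belong to pathways that respond to stress or neuronal activity. Among 28 tested immediate early genes, the first to be transcribed when neurons are active, 12 were higher in RSD mice and 0 lower at the threshold of the study, with a median log2 fold change of 1.04 and 27 above 0, against 1.85% of all genes higher and a median of 0.032, and none passed the adjusted threshold. Arc had 90.3, 109 and 58.1 FPKM in RSD mice, against 26.2, 12.2 and 17.3 FPKM in control mice, and Fos had 10.6, 16.5 and 12.0 FPKM in RSD mice, against 4.38, 4.04 and 3.28 FPKM in control mice. Only Egr1 and Jund of this list had a divergent lncRNA. Egr1, a zinc finger factor, had 34.8, 43.3 and 40.1 FPKM in RSD mice, against 23.6, 23.6 and 27.6 FPKM in control mice, with all RSD mice above (log2 fold change 0.66, unadjusted p = 0.00239, adjusted p = 0.433 from limma). Its lncRNA NONMMUT145583.1, which starts 39 bases away, had 0.496, 0.520 and 0.691 FPKM in RSD mice, against 0.283, 0.746 and 0.480 FPKM in control mice, with overlapping groups and a log2 fold change of 0.21. The change of their ratio was -0.44 (standard error 0.391, unadjusted p = 0.300). Jund, a partner of Fos proteins, had 3.88, 2.18 and 0.920 FPKM in RSD mice, against 1.78, 0.805 and 0.573 FPKM in control mice, and its lncRNAs NONMMUT152748.1 and NONMMUT152749.1 had log2 fold changes of -0.20 and -0.23.

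Of 17 tested glucocorticoid-responsive genes, 2 were higher at the threshold, Cdkn1a and Ddit4, with log2 fold changes of 1.01 and 1.51, the list had a median log2 fold change of 0.78, against 0.032 for all genes, and none was a partner gene. Over all genes, 1.85% were higher and 0.57% lower at the threshold, and no gene on the lists of this paragraph passed the adjusted threshold. Among 41 tested forebrain transcription factors, 1 was higher, Nfix, with 24.0, 23.5 and 16.7 FPKM in RSD mice against 3.09, 6.24 and 3.91 FPKM in control mice (adjusted p = 0.147 from limma), and the partners among them were Pou3f3 and Zeb1. NONMMUT104030.1, which starts 149 bases from Zeb1, had 1.07 to 1.24 FPKM in RSD mice and 0.951 to 1.59 FPKM in control mice. The machinery that ends or removes upstream RNAs, with 64 tested genes of the exosome and its adaptors, Integrator, cleavage and polyadenylation, U1 snRNP and transcription elongation, had 1 higher, Ints7, and 1 lower, Ints4, both subunits of Integrator, which cleaves nascent RNA. Ints7 had 1.99, 1.97 and 3.11 FPKM in RSD mice, against 1.54, 0.629 and 0.942 FPKM in control mice, and Ints4 had 4.04, 5.06 and 5.62 FPKM in RSD mice, against 15.7, 5.90 and 11.7 FPKM in control mice. Exosc3, an exosome subunit, had 0.993, 0.740 and 0.771 FPKM in RSD mice, against 1.43, 1.18 and 1.31 FPKM in control mice, below in all RSD mice with a log2 fold change of -0.60 (limma, adjusted p = 0.546). The median of this list was -0.032, against 0.032 for all genes. Cpsf2, a subunit of the cleavage complex, was the only partner among them, at 7.56 to 7.62 FPKM in RSD mice and 7.14 to 9.74 FPKM in control mice, with 0.845 to 1.25 FPKM in RSD mice and 0.613 to 1.11 FPKM in control mice for its lncRNA NONMMUT015446.2.

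The libraries had relative depths of 0.908 to 0.966 in RSD mice and 0.856 to 1 in control mice, read from the steps between low values, since FPKM give no counts. Over the tested lncRNA transcripts, which are not independent, control 1 correlated with the other control mice at r = 0.632 and 0.651 and with the RSD mice at 0.689 to 0.699. The summed markers of excitatory neurons were 383 to 424 FPKM in RSD mice, against 389.6, 62.4 and 69.7 FPKM in control mice, where Slc17a7 was listed at or near 0 in controls 2 and 3. Those of interneurons were 109.6 to 173 FPKM in RSD mice and 90.2 to 149 FPKM in control mice, with 1 of 5 markers at the threshold, which is the partner gene Slc32a1. The oligodendrocyte sums were 204.5 to 252.5 FPKM in RSD mice and 118 to 189.5 FPKM in control mice, with none of the 4 markers at the threshold. Sums for choroid plexus, with 2 of 4 markers listed, were 0.453 to 0.824 FPKM in RSD mice and 0.659 to 3.75 FPKM in control mice, and those of the astrocyte, oligodendrocyte precursor, microglia, endothelial and blood cell lists overlapped between the groups. Of the 5 blood cell markers, 1 was at the threshold, Hba-a1, an alpha globin, with 14.9, 14.3 and 20.6 FPKM in RSD mice, against 1.85, 3.45 and 10.6 FPKM in control mice. Sums for striatal neurons, with 3 of 4 markers listed, were 30.5 to 34.6 FPKM in RSD mice, against 39.0, 18.2 and 18.7 FPKM in control mice, and the 1 listed olfactory bulb marker was at 2.48 to 3.23 FPKM in RSD mice and 2.62 to 5.27 FPKM in control mice. The part of these markers in the results above was not tested.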

How the data were processed

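FPKM values were deposited by the authors, who aligned the reads, assembled transcripts and computed 1 FPKM per transcript and mouse with the Cufflinks suite, dividing the reads of a locus among its isoforms. Bowtie 0.12.2 and mm9 stand in the processing notes of the submitters, while 99.9% of the 31440 mRNA transcripts matched to RefSeq by symbol overlap their gene on GRCm38, so positions were read as GRCm38. The deposited tables also hold fold changes and p-values of the authors, which were not used. Depth per library is unknown except as a ratio, and no counts were used, so edgeR, which the study names, could not be applied. No interval for counting error is given for that reason.

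Distances were taken from the listed positions. RSD and control mice, 3 each, grouped by the labels, were compared with limma 3.58.1 in R 4.3.3 on log2(FPKM + 0.1), with the prior variance trended on mean level, over all lncRNA transcripts, genes or ratios with at least 0.5 FPKM in at least 3 mice, two-sided, with Benjamini-Hochberg adjustment over each whole fit. The procedure was tested on simulated data. The transcripts, gene lists and rules for named genes were chosen with earlier results of these data known. Named were the transcripts at the threshold of the study, the 10 highest, pairs on a list, the 5 ratios in each direction with the largest change and an unadjusted p of 0.05 or less, and those at the distance limit. The rule for lists took up to 4 genes by smallest p, of which only some are named. Genes with a smaller p than a named one were thus left out, Dusp1 and Asun among them. The partner genes at the threshold, Slc32a1, Exosc3 and single rows of Gas5 and Tug1 among them, were named after their values were seen. One partner gene and its pair, which the counts include, are not reported here by name. Alternatives were other pseudocounts, filters, scalings, distance limits and units of the lncRNA or partner, no trend, a replicate block and each mouse left out.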

Additional observations from a re-analysis of the deposited data

How the results depend on the processing

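The counts of divergent lncRNAs at the threshold of the study, 3 higher and 9 lower in RSD mice, fell in number with a pseudocount of 1 (1 higher and 3 lower) and in the lower direction with a pseudocount of 0.01 (4), a filter of 1 FPKM (3), median scaling (4) and quantile normalization (4). The share of all lncRNA transcripts at the threshold was 1.2%, 2.44%, 2.08%, 2.12% and 2.13% in the same order, against 2.43%. The filter of 1 FPKM left only 228 divergent lncRNAs tested. Without a filter, 614 transcripts were tested and 7 were higher and 16 lower, with 2.82% of all lncRNA transcripts at the threshold. Without the trend, 1 passed the adjusted threshold. With each mouse left out in turn, 0 to 10 were higher and 6 to 16 lower, with 0 past the adjusted threshold. Of all lncRNA transcripts, 2.18% to 3.38% were then at the threshold of the study. Partner genes, 12 higher and 5 lower, had 3 lower with a pseudocount of 1, and 5 to 22 higher, 2 to 5 lower and 0 to 4 past the adjusted threshold with a mouse left out. Of all genes, 1.57% were at the threshold with a pseudocount of 1 and 1.73% to 6.13% with a mouse left out. Ratios, 12 higher and 25 lower, numbered 5 and 15 with a pseudocount of 1, 19 higher without a filter, 5 and 8 with a filter of 1 FPKM, 16 lower with median scaling, 15 lower with quantile normalization, 6 higher with the partner taken as the nearest transcript, and 3 to 14 higher, 14 to 47 lower and 0 to 1 past the adjusted threshold with a mouse left out. The share of all ratios at the threshold was 2.95%, 4.79%, 3.62%, 4.14%, 4.22% and 4.29% for these alternatives in order. It was 3.41% to 8.7% with a mouse left out. The filter of 1 FPKM left only 216 divergent pairs tested. The causes were not tested. Shares of all lncRNA transcripts, genes or ratios past the adjusted threshold were not taken for any alternative. With the replicate number as a block, 4 lncRNAs were higher and 8 lower, 18 partner genes higher and 3 lower, and 8 ratios higher and 27 lower. The shares of all lncRNA transcripts, genes and ratios at the threshold were then 2.78%, 3.4% and 4.94%. The labels give no sign that equal numbers share an animal or cage, and the deviations of same-numbered mice correlated at only 0.0597, -0.0501 and 0.0790, so the number is no pairing. The call beside Rnf126 was on a transcript that met the FPKM minimum only in control mice, so its groups had to differ. Of the 12 lncRNAs, 2 kept their call with each mouse left out, those beside Rnf126 and Tmem147, and 0 under every alternative run. Of 17 partner genes, 4 and 2 did so, and of the 10 ratios with the largest changes, 3 and 3. Ratios were not fitted to locus sums. Limits of 1000 and 500 bases, 1 transcript per locus, fitting lncRNA and mRNA transcripts together and summing per locus left the counts of lncRNAs within 1.5 times. The head-to-head alternative took the same 519. Directions were not all kept. Summed per locus, the lncRNA change was 0.094 beside Tmem147 and -0.31 beside Kmt2e, both opposite in sign to the transcript. With the nearest mRNA transcript as the partner, 1 partner gene that is not named here had a log2 fold change of 2.71 and its ratio one of -2.94, both turned round. The median log2 fold change of partner genes was 0.041, and -0.039 with median scaling and -0.044 with quantile normalization. Without control 1, divergent lncRNAs at the threshold were 10 higher and 7 lower, with 3.38% of all lncRNA transcripts at it. Low values limit all of this: the median divergent lncRNA was at 0.820 FPKM.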
